A study of Mus musculus with 6 samples.

Results

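Cnmd, Cytl1, Ucma, Snorc, Scrg1, Clec3a and Vit were examined in the femurs of mice that expressed mutant Ifitm5 in chondrocytes. These 7 genes were grouped as encoding small secreted or membrane proteins of cartilage. They were chosen by name, under the heading of chondromodulin and other small genes restricted to cartilage. Whether each is restricted to cartilage was not tested, and Vit is not a small gene, since it spans 119398 bases. All 7 are among the 23733 genes of the deposited table. The mutant group was 3 mice with the mIfitm5 allele, a Flag-tagged Ifitm5 cDNA carrying the mutation of osteogenesis imperfecta type V, knocked into Rosa26, together with Acan-Cre ERT2, a Cre recombinase driven by the aggrecan promoter that acts only after tamoxifen. The control group was 3 mice. The study drew its controls from littermates that lacked Cre, lacked the mIfitm5 allele or lacked both, and the sources used here do not tell which genotype each of the 3 had or whether controls received tamoxifen. Mutant mice received tamoxifen at 10 mg/kg per dose, starting at P10 (the general methods and the series description give P10 to P15, and the RNA-Seq methods P10 alone), and femurs were taken at 5 weeks of age on a C57BL/6 background. Each library was made from total RNA of 1 mouse's pulverized femur, so it holds the RNA of all tissues of the bone together, and recombination was aimed at chondrocytes only.

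Growth plate and articular cartilage are built by chondrocytes, which secrete a matrix of type II collagen and aggrecan under the control of Sox9. Beside these large molecules, chondrocytes make smaller proteins, some of which mark chondrocyte identity. Chondromodulin, the product of Cnmd, is made as a membrane protein with a BRICHOS domain and is cleaved to release a form that inhibits the growth of blood vessels, which keeps cartilage avascular. Ucma is a secreted protein rich in Gla, the modified glutamate that is formed by a carboxylase dependent on vitamin K, and it is made by chondrocytes of the upper growth plate. Snorc is a transmembrane proteoglycan of chondrocytes that carries chondroitin sulfate. Cytl1 and Scrg1 are small secreted proteins that are linked to chondrocyte differentiation in culture. Clec3a is a secreted C-type lectin of cartilage, and Vit encodes vitrin, an extracellular protein with von Willebrand factor A domains.

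The 7 genes lie on 6 chromosomes of GRCm39 and share no locus. Cnmd lies on chromosome 14 from 79875120 to 79899615 on the minus strand, and the other 6 lie on plus strands. Ucma is on chromosome 2 from 4980925 to 4990559, Cytl1 on chromosome 5 from 37892863 to 37897329 and Snorc on chromosome 1 from 87397772 to 87403204. Scrg1 and Clec3a are both on chromosome 8, from 57908933 to 57932433 and from 115144826 to 115152586. Vit is on chromosome 17 from 78815443 to 78934840. All are protein-coding. Clec3a and Vit are each overlapped on the opposite strand by 1 annotated non-coding gene that is not among the genes of the table.

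The 250 bases before the annotated start of the 3 genes at the ends of the response are shown, Cnmd and Ucma with the 2 largest fold changes and Vit with the smallest. They were read from GRCm39 at chr14:79899616-79899865 on the minus strand, chr2:4980675-4980924 on the plus strand and chr17:78815193-78815442 on the plus strand, each 5′ to 3′ towards the gene. Capitals mark the core ACAAT of SOX binding sites and the TATA box letters TATAAA, found on either strand.
Cnmd: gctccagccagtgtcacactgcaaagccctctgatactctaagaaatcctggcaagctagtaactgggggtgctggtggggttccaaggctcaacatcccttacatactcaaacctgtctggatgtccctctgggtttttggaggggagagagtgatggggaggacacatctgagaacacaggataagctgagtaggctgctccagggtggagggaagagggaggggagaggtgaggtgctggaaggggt
Ucma: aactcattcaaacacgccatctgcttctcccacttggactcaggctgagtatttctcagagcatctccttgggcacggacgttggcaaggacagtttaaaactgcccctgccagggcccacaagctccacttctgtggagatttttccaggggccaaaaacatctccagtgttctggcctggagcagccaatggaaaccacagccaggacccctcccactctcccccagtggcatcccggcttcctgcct
Vit: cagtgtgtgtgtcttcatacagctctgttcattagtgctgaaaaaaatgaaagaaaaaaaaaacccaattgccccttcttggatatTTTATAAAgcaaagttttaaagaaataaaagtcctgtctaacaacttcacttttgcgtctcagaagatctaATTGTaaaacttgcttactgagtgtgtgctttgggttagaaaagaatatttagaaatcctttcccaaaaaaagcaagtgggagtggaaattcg

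The core ACAAT was found in 1 of the 7 promoter windows, that of Vit, on the strand opposite to the gene, with its end 89 bases before the start. It was found in 21.5% of the windows of 15698 protein-coding genes. The second SOX core searched, ACAAAG, which LEF factors also bind, was in 0 of the 7 windows and in 13.8% of all windows. TATAAA was in 2 of the 7 windows, those of Clec3a and Vit, where matches on both strands overlap, and in 8.10% of all windows. The matches ended 110 and 106 bases before the start in Clec3a and 159 and 157 bases before it in Vit. They are matches of letters, and whether they act as TATA boxes was not tested. The windows of Cnmd and Ucma held none of the 3 motifs, which says only that these letters are not in those 250 bases. The Vit window had a GC content of 34.0%, against 55.2% for Cnmd and 56.0% for Ucma.

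Total counts per library ranged from 11473467 to 14593082 in mutant mice and from 12467626 to 17058572 in control mice. Levels are given as CPM, a gene's count scaled to its library's total, after TMM scaling, which sets the libraries to a common level through the genes that differ least between them. All 7 chondrocyte markers checked (Acan, Col2a1, Col9a1, Hapln1, Matn1, Comp and Sox9) were detected in every library, and so were markers of osteoblasts, red cells, neutrophils and skeletal muscle. Ifitm5 itself was at 23.4, 36.7 and 36.0 CPM in mutant mice 1, 2 and 3, against 31.8, 31.3 and 47.6 CPM in control mice 1, 2 and 3, with overlapping groups (log2 fold change -0.20, standard error 0.23). The table does not separate the knocked-in cDNA from the endogenous gene. Col1a1, the main collagen gene of bone, was at 40591 to 73351 CPM in mutant mice and at 82606 to 119340 CPM in control mice. Genes were tested by edgeR's quasi-likelihood test for the 18126 genes that passed its filter on low counts, with Benjamini-Hochberg adjustment over all of them, and a gene was called at an adjusted p under 0.05. All 7 small cartilage genes passed the filter.

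All 7 genes had a higher mean in mutant than in control femurs, where 50.3% of all genes tested had a positive log2 fold change. The differences ran from 1.31-fold for Vit to 5.91-fold for Cnmd, and the median log2 fold change was 1.85, against 0.00 over all genes tested. None of the 7 was called by edgeR, and neither was any other gene (0 of 18126, or 0%), while 1551 genes had an unadjusted p under 0.05 and DESeq2 called 118. At an unadjusted p under 0.05, 5 of the 7 were higher (Cnmd, Cytl1, Ucma, Snorc and Scrg1), where 5.06% of all genes were. The 3 mutant mice lay above all 3 control mice for Cnmd, Ucma and Scrg1, 3 of the 7, where 6.54% of all genes tested did so. DESeq2 called Cnmd and Ucma, 2 of the 7, where it called 0.59% of all genes higher. In whole femurs, more chondrocytes and more RNA of these genes per chondrocyte cannot be told apart.

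**Figure D1:**
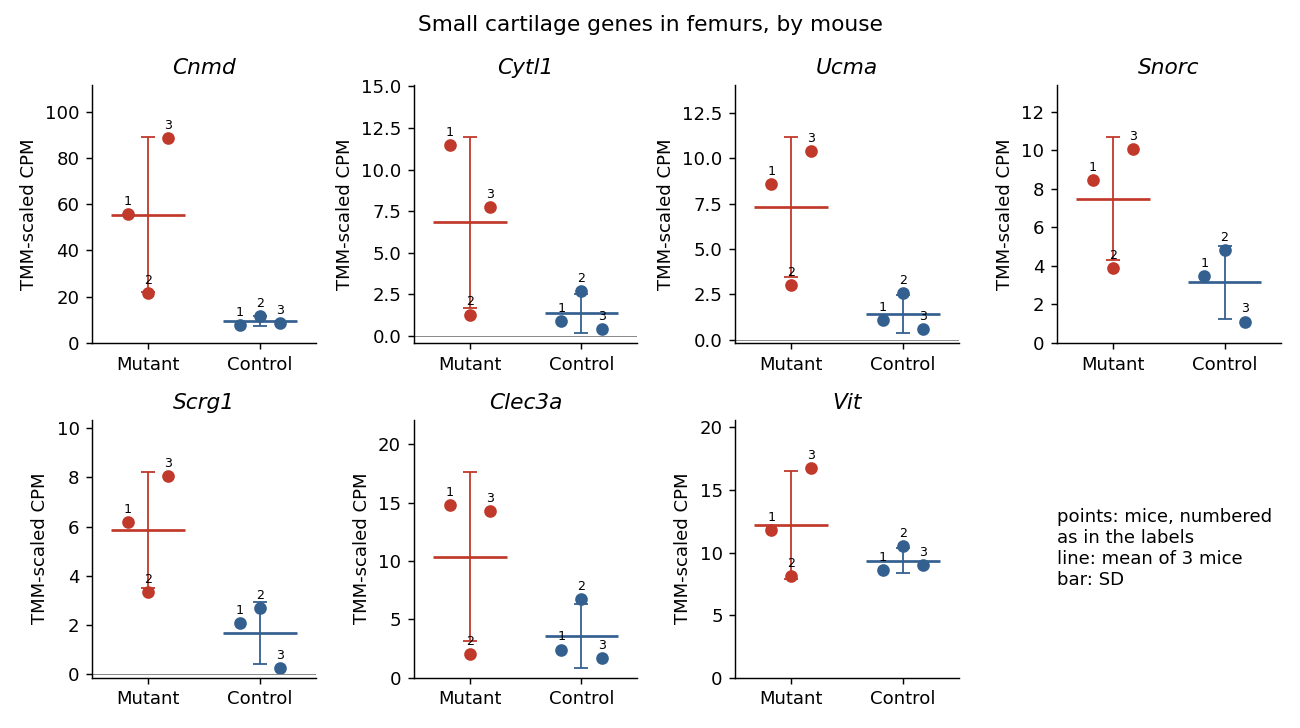
TMM-scaled CPM of each of the 7 genes in the 3 mutant (red) and 3 control (blue) mice. Points are mice numbered as in the labels, lines are means and bars are SD. Mutant mice 1 and 3 lay above all controls for every gene, and mutant mouse 2 did so for Cnmd, Ucma and Scrg1 only.

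Cnmd had the largest difference of the 7 and, per kilobase of exon, the highest level in mutant mice. It was at 55.9, 21.6 and 88.6 CPM in mutant mice 1, 2 and 3, against 7.65, 11.6 and 8.82 CPM in control mice 1, 2 and 3. All 3 mutant mice were thus above the highest control, and mutant mouse 2 was the closest to it. The log2 fold change was 2.56 (standard error 0.52, adjusted p = 0.490 from edgeR), with 304 to 1366 counts behind each mutant value and 92 to 143 behind each control value. DESeq2 gave the same log2 fold change of 2.56, with a standard error of 0.42 from its own model, and called it (adjusted p = 2.81e-06). Without mutant mouse 2, edgeR called Cnmd too (log2 fold change 2.94, standard error 0.27, adjusted p = 0.0301), as 1 of 8 genes called, or 0.0432% of those tested. Over its 16 alternative settings the adjusted p of Cnmd ranged from 2.81e-06, by DESeq2, to 1.00, by edgeR without mutant mouse 1.

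Ucma had lower levels and also did not overlap between the groups. It was at 8.55, 2.98 and 10.4 CPM in mutant mice 1, 2 and 3, and at 1.08, 2.59 and 0.555 CPM in control mice 1, 2 and 3. Mutant mouse 2 lay just above control mouse 2, with 42 and 30 counts. The log2 fold change was 2.40 (standard error 0.63, adjusted p = 0.545 from edgeR), and it was 3.18 without control mouse 2. DESeq2 called Ucma with a log2 fold change of 2.39 (adjusted p = 0.0170).

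The enzymes that form the Gla residues of Ucma had log2 fold changes near or below 0. These are values of whole femurs, which do not separate the chondrocytes that make Ucma from other cells. Ggcx, the carboxylase itself, was at 26.4, 42.6 and 55.4 CPM in mutant mice and at 46.3, 49.2 and 68.4 CPM in control mice, with overlapping groups (log2 fold change -0.40, standard error 0.27). Vkorc1, which regenerates vitamin K for it, was at 15.4, 23.5 and 25.7 CPM in mutant mice and at 26.2, 29.2 and 36.8 CPM in control mice, so that all 3 mutant mice lay below all 3 controls, as they did for 6.67% of all genes tested. Its log2 fold change was -0.51 (standard error 0.22, adjusted p = 0.574 from edgeR). Its paralogue Vkorc1l1 had 0.13 (standard error 0.14). Neither these enzymes nor any of the other Gla protein genes was called by edgeR or DESeq2. Mgp, the matrix Gla protein of cartilage and vessels that inhibits calcification, was on the higher side (log2 fold change 0.95, standard error 0.39), and mutant mice 1 and 3 lay above all controls. The osteocalcin genes Bglap and Bglap2 of osteoblasts had -0.18 (standard error 0.29) and 0.00 (standard error 0.32).

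Cytl1 had a fold change close to that of Ucma, but its groups overlapped. It was at 11.5, 1.28 and 7.72 CPM in mutant mice 1, 2 and 3, against 0.915, 2.67 and 0.432 CPM in control mice 1, 2 and 3. Mutant mouse 2 lay below control mouse 2, on 18 and 31 counts. The log2 fold change was 2.38 (standard error 0.91, adjusted p = 0.570 from edgeR), and it was 1.79 when mutant mouse 1 was left out, 3.36 when control mouse 2 was left out and 1.37 with limma-voom and quality weights.

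Scrg1 had the lowest level of the 7 per kilobase of exon in both groups of mice and did not overlap between the groups. It was at 6.17, 3.34 and 8.05 CPM in mutant mice 1, 2 and 3 and at 2.08, 2.67 and 0.247 CPM in control mice 1, 2 and 3. The level in control mouse 3 rested on 4 counts, for which an exact Poisson interval of 95% runs from 1.09 to 10.2 counts and covers counting error only. The log2 fold change was 1.85 (standard error 0.69, adjusted p = 0.563 from edgeR), and 1.30 without control mouse 3.

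Snorc showed a similar order of mice with a smaller difference. It was at 8.47, 3.90 and 10.1 CPM in mutant mice 1, 2 and 3, against 3.49, 4.83 and 1.11 CPM in control mice 1, 2 and 3. Mutant mouse 2 lay between control mice 1 and 2. For Snorc the log2 fold change was 1.27 (standard error 0.54, adjusted p = 0.578 from edgeR), with 0.85 without control mouse 3.

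Clec3a was at 14.8, 2.06 and 14.3 CPM in mutant mice 1, 2 and 3, and at 2.41, 6.73 and 1.66 CPM in control mice 1, 2 and 3. Mutant mouse 2 thus lay between control mice 3 and 1, and control mouse 2 was higher than all of these. This gave 1.54 as the log2 fold change of Clec3a (standard error 0.84, adjusted p = 0.646 from edgeR), with 2.36 without control mouse 2 and 0.52 with limma-voom and quality weights.

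Vit had the smallest difference of the 7. It was at 11.8, 8.09 and 16.7 CPM in mutant mice 1, 2 and 3, against 8.57, 10.5 and 9.001 CPM in control mice 1, 2 and 3. The lowest of all 6 mice was mutant mouse 2. On the log2 scale the fold change was 0.38 (standard error 0.27, adjusted p = 0.706 from edgeR), and it was 0.08 without mutant mouse 3 and 0.61 without mutant mouse 2.

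**Figure D2:**
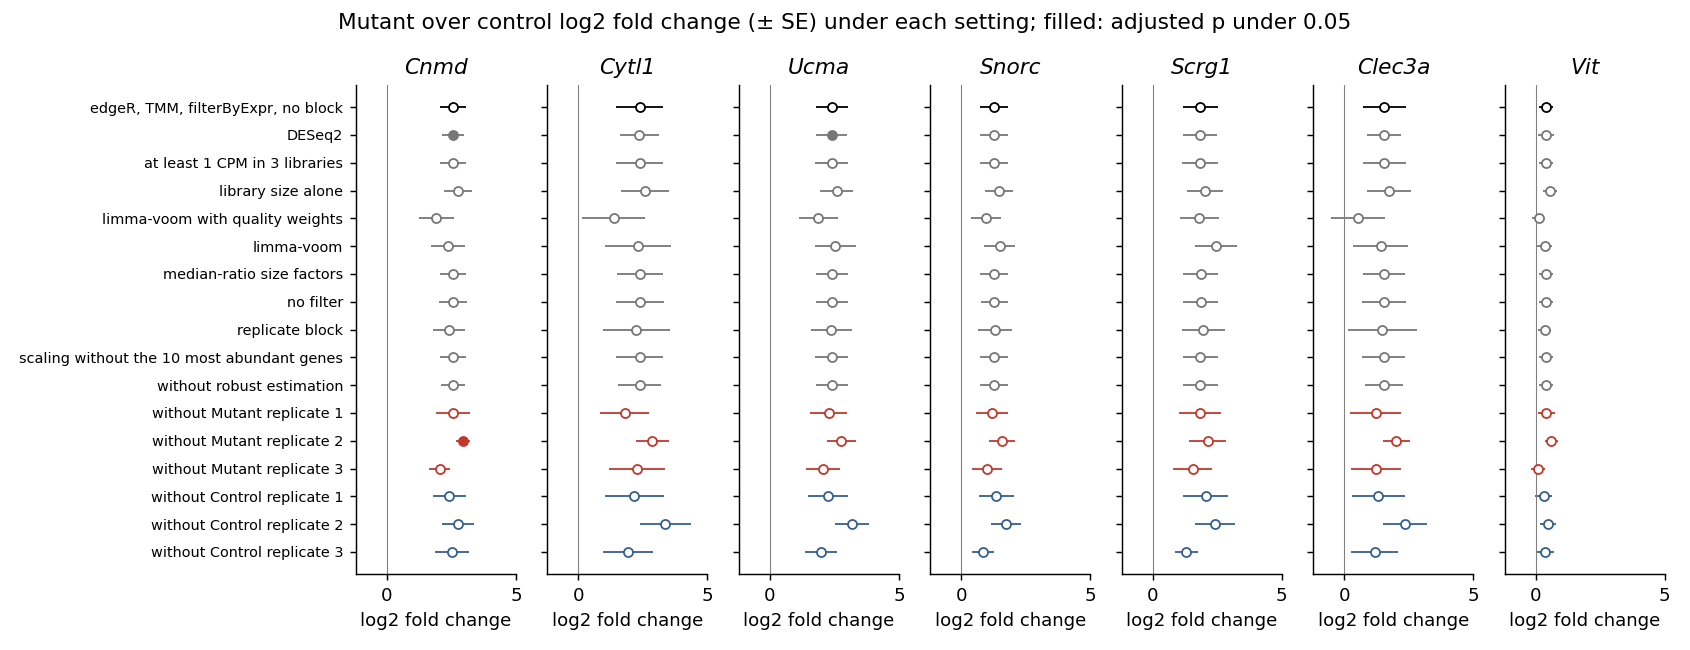
Log2 fold change of mutant over control (x axis) with its standard error (bars) for each gene under edgeR with TMM, the default filter and no block (black), other models, scalings and filters (gray), and fits that leave out 1 mutant (red) or 1 control mouse (blue). Filled points have an adjusted p under 0.05, which are Cnmd and Ucma by DESeq2 and Cnmd without mutant mouse 2. All points lie above 0.

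The order of the mice within each group was nearly the same for all 7 genes. Mutant mouse 2 was the lowest mutant and control mouse 2 the highest control for 7 of 7 genes. Mutant mouse 3 was the highest mutant for 5 genes and mutant mouse 1 for the other 2, Cytl1 and Clec3a. Control mouse 3 was the lowest control for 5 genes, and control mouse 1 for the other 2, Cnmd and Vit. The place of mouse 2 was not particular to the 7. Acan, Hapln1 and Comp also had mutant mouse 2 lowest among the mutants and control mouse 2 highest among the controls. Matn1 and Col11a1 did not. The lowest correlation between a pair of the 7 genes over the 6 libraries was r = 0.612, between Scrg1 and Vit, and the highest was r = 0.982, between Snorc and Scrg1 (Pearson, log2 CPM). These coefficients are descriptive, since the 6 points are the same libraries in every pair and include the difference between groups.

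The mice were also compared in pairs by the labels' replicate number, because over all genes same-numbered libraries deviated together from their group means. This did not hold for the 7 genes themselves, whose deviations had opposite signs in the mutant and the control mouse for 5 of 7 genes in pair 1 and 7 of 7 in pairs 2 and 3. Cnmd, Ucma and Scrg1 were higher in the mutant mouse in 3 of 3 pairs. In pair 1 they were 7.30-fold, 7.91-fold and 2.97-fold higher. In pair 2 they were 1.85-fold, 1.15-fold and 1.25-fold higher, and in pair 3 they were 10.1-fold, 18.7-fold and 32.6-fold higher, where the Scrg1 value rests on the 4 counts of control mouse 3. The other 4 genes were higher in pairs 1 and 3 and lower in pair 2, where the mutant level was 0.306 times the control level for Clec3a, 0.478 for Cytl1, 0.769 for Vit and 0.808 for Snorc. With the replicate number as a block, edgeR called 0 of the 7 genes (lowest adjusted p = 0.217, for Ucma), where it called 2.7% of all genes higher. The block gave a larger standard error for 6 of the 7, such as 0.63 with it and 0.52 without it for Cnmd, and a smaller one for Vit.

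Levels of different genes were compared as CPM per kilobase of annotated exon. In mutant mice the order was Cnmd (mean 29.8), Clec3a (17.6), Ucma (8.19), Snorc (8.09), Cytl1 (5.59), Vit (3.72) and Scrg1 (2.07). In control mice it was Clec3a (6.09), Cnmd (5.04), Snorc (3.40), Vit (2.86), Ucma (1.58), Cytl1 (1.10) and Scrg1 (0.589). In both groups, each gene's range over the 3 mice overlapped that of the next gene in the order. Within single libraries the order was firmer, since 3 of 6 neighbouring pairs kept it in all 3 mutant mice and 4 of 6 in all 3 control mice. Cnmd was above Clec3a in 3 of 3 mutant mice and in 2 of 3 control mice, although its control mean was lower. In mutant mice, the Cnmd range of 11.6 to 47.7 overlapped the Clec3a range of 3.48 to 25.0, and in control mice the Cnmd range of 4.12 to 6.27 lay within the Clec3a range of 2.82 to 11.4. The annotated exons of Clec3a span only 591 bases in 1 transcript, against 3280 bases for Vit.

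Since the whole cartilage matrix also differed between the groups, each gene was set against it within each library, a measure chosen after the values were seen. Of 13 cartilage matrix genes, 11 had a positive log2 fold change (median 1.51). DESeq2 called 8 of them higher and edgeR called 0, with 9 higher at an unadjusted p under 0.05. Over all genes tested, DESeq2 called 0.59% higher, and 5.06% were higher at that unadjusted p. All 3 mutant mice lay above all 3 controls for 7 of the 13, against 6.54% of all genes. The exceptions were Col11a1 (log2 fold change -0.13, standard error 0.25) and Col11a2 (-0.38, standard error 0.26). The geometric mean of the 13 was 171, 83.2 and 233 CPM in mutant mice 1, 2 and 3. It was 61.4, 69.4 and 51.4 CPM in control mice 1, 2 and 3. By this measure, in which each gene weighs the same, the mutant mice lay above all controls. The summed level of the 13, in which abundant genes weigh most, was 6848, 4682 and 10185 CPM in mutant mice 1, 2 and 3. In control mice 1, 2 and 3 it was 5061, 4855 and 5534 CPM, so mutant mouse 2 lay below all controls. The exceptions Col11a1 and Col11a2 weigh heavily in this sum. They were at 1766 and 877 CPM in mutant mouse 2, against 2550 and 1503 CPM in control mouse 3. The sum thus does not show that the other matrix genes were lower in mutant mouse 2.

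Relative to the geometric mean of the matrix genes, Cnmd lay higher in all mutant than in all control mice, and Vit lay lower. The differences for Snorc and Clec3a depended on single mice. The log2 ratio of Cnmd to the matrix was -1.61, -1.95 and -1.39 in mutant mice 1, 2 and 3, against -3.00, -2.57 and -2.54 in control mice 1, 2 and 3. The groups did not overlap, and the difference of the means was 1.06 (two-sided exact permutation test, p = 0.1, the smallest that 3 mice against 3 allow, as 1 of 7 such tests). The log2 ratio of Vit was -3.85, -3.36 and -3.80 in mutant mice, against -2.84, -2.72 and -2.51 in control mice. These groups did not overlap either, in the opposite direction (difference -0.98, exact permutation p = 0.1). For Ucma, Scrg1 and Cytl1 the differences were 1.16, 1.00 and 0.94 with overlapping groups (exact permutation p = 0.2, 0.4 and 0.4). The Scrg1 ratio was -7.70 in control mouse 3, against -4.88 and -4.70 in the other controls, and the difference was 0.03 without that mouse. The Ucma difference was 0.75 without control mouse 3, and that of Cytl1 ranged from 0.42 without mutant mouse 1 to 1.54 without control mouse 2. For Snorc and Clec3a the differences were 0.08 and 0.03 (exact permutation p = 1 for both). That of Snorc was -0.44 without control mouse 3 and 0.41 without control mouse 2, and that of Clec3a ranged from -0.36 without mutant mouse 1 to 0.55 without mutant mouse 2. With 1 mouse left out, the difference of Cnmd was at least 0.91 and that of Vit stayed between -1.14 and -0.89.

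**Figure D3:**
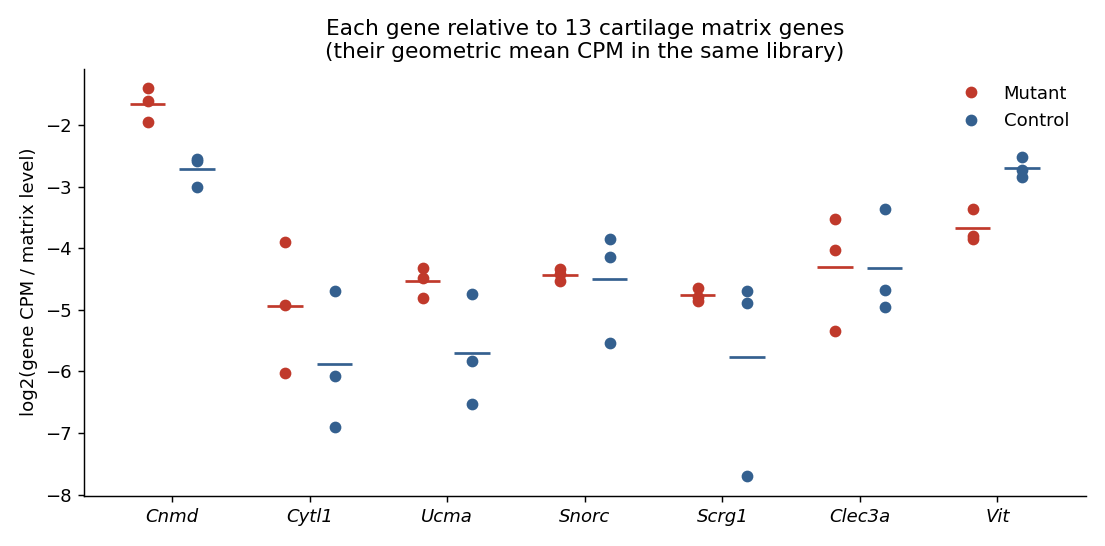
Log2 ratio of each gene's CPM to the geometric mean CPM of 13 cartilage matrix genes in the same library (y axis), for mutant (red) and control (blue) mice, with lines at the means. Only Cnmd, where mutants were higher, and Vit, where mutants were lower, had groups that did not overlap.

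The relatives of the 7 genes had log2 fold changes from -0.25, for Itm2c, to 0.95, for Mgp, and neither edgeR nor DESeq2 called any of the 9. Tnmd, the tendon relative of Cnmd that encodes tenomodulin, was at 20.7, 17.4 and 7.46 CPM in mutant mice 1, 2 and 3, against 9.98, 14.8 and 5.61 CPM in control mice 1, 2 and 3. Its groups overlapped, its log2 fold change was 0.59 (standard error 0.45), and its lowest mutant was mouse 3, in which Cnmd was highest. The other BRICHOS genes Itm2a, Itm2b and Itm2c had log2 fold changes of 0.37, -0.11 and -0.25 (standard errors 0.20, 0.15 and 0.21). Clec3b, the relative of Clec3a that encodes tetranectin, had -0.23 (standard error 0.39). Coch, which encodes cochlin and shares the domains of vitrin, had 0.36 (standard error 0.58) at 0.852 to 2.40 CPM in mutant mice and 0.617 to 1.73 CPM in control mice.

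Among the regulators and zones of cartilage, the lists of early chondrocytes had positive medians. That of hypertrophic chondrocytes had genes of both signs, positive for Col10a1 and Ihh, and a median below 0. Of the 4 chondrogenic transcription factors tested, all had positive log2 fold changes, with a median of 0.92. Sox8 led them (1.23, standard error 0.31), and 1 was higher at an unadjusted p under 0.05. Only for Sox8 did all mutant mice lie above all controls. Sox9 was at 55.6, 19.9 and 59.96 CPM in mutant mice and at 23.96, 28.8 and 22.3 CPM in control mice. Mutant mouse 2 thus lay below all controls for Sox9. Sox6 was at 168, 105 and 59.4 CPM in mutant mice and at 71.6, 68.9 and 27.99 CPM in control mice. Within each group its mice fell in the order of the summed erythroid genes given below. The part of other tissues in the Sox6 level was not tested. Nkx3-2 did not pass the filter on low counts. All 3 reserve zone genes were positive with a median of 1.17, among them Pthlh, the signal that holds chondrocytes back from maturing (1.17, standard error 0.37), and Sfrp5, a Wnt inhibitor (1.62, standard error 0.61). The 10 hypertrophic chondrocyte genes had a median of -0.22, with 4 positive and 6 negative. With library size alone as the scaling it was -0.06, where the median of all genes was 0.16. The negative genes were Mmp13, Ibsp, Spp1, Panx3, Alpl and Mef2c, with log2 fold changes from -0.51, for Mmp13, to -0.16, for Mef2c. Among the positive was Ihh, the signal of prehypertrophic chondrocytes, with 9.89, 4.61 and 5.91 CPM in mutant mice 1, 2 and 3, all above the 4.24, 3.88 and 2.10 CPM of control mice 1, 2 and 3 (1.00, standard error 0.38). Col10a1, the collagen that defines hypertrophic cartilage, was at 215, 191 and 259 CPM in mutant mice 1, 2 and 3, against 197, 144 and 215 CPM in control mice 1, 2 and 3 (0.26, standard error 0.18). The list shares Ibsp (-0.41, standard error 0.27) and Alpl (-0.28, standard error 0.21) with the osteoblast list, in which all 11 genes had negative log2 fold changes, and the part of osteoblasts in its median was not tested. The articular surface genes Prg4, Cilp and Cilp2 had -0.21, 0.57 and 0.07 (standard errors 1.28, 0.49 and 0.53), and Crtac1 did not pass the filter. No gene of these lists was called by edgeR or DESeq2. With the replicate block, edgeR called 2 of the chondrogenic factors higher, where it called 2.7% of all genes higher.

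**Figure D4:**
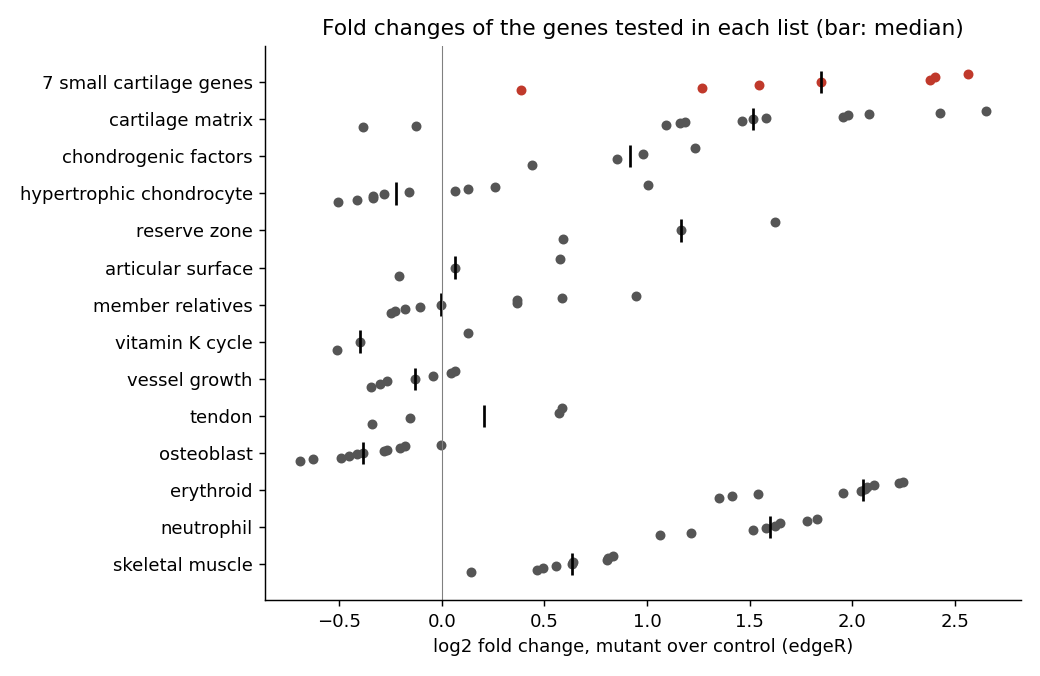
Log2 fold change of mutant over control for each gene tested (points) in the 7 small cartilage genes (red) and in the lists set beside them (gray), with the median of each list as a bar. The 7 genes have a median of 1.85, beside 1.51 for cartilage matrix genes, -0.22 for hypertrophic genes and -0.39 for osteoblast genes. The hypertrophic list has genes of both signs and shares Ibsp and Alpl with the osteoblast list.

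Chondromodulin acts on vessels, so the vessel growth genes were read beside Cnmd. Of 7, 2 had a positive log2 fold change and 5 a negative one, and the median was -0.13. With library size alone as the scaling it was 0.03, where the median of all genes was 0.16. Cdh5, the cadherin of endothelial junctions, had -0.30 (standard error 0.12), and Tek, the angiopoietin receptor, had -0.35 (standard error 0.14). For both, 2 of the 7, all 3 mutant mice lay below all 3 controls, against the 6.67% of all genes, and neither was called by edgeR or DESeq2. Emcn, Kdr, Pecam1 and Flt1 had -0.26, -0.13, -0.04 and 0.05 (standard errors 0.18, 0.12, 0.13 and 0.12), with overlapping groups. Vegfa, the growth factor for vessels, was at 66.9, 87.2 and 98.1 CPM in mutant mice and at 88.4, 75.0 and 77.6 CPM in control mice (log2 fold change 0.07, standard error 0.16). Whether the levels of Cnmd and of these genes are linked was not tested.

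Other tissues of the femur differed between the libraries as well. All 10 erythroid genes had a positive log2 fold change (median 2.05), and their summed level was 10743, 3506 and 1667 CPM in mutant mice 1, 2 and 3, against 1846, 1204 and 642 CPM in control mice 1, 2 and 3. All 8 neutrophil genes were positive (median 1.60), with 1023 to 1789 CPM in mutant mice and 282 to 574 CPM in control mice. DESeq2 called 8 of 8 higher, where it called 0.59% of all genes higher. All 11 osteoblast genes were negative (median -0.39), Bglap2 by only -0.003. Their summed level was 61390 to 111715 CPM in mutant mice and 122427 to 177190 CPM in control mice, and Col1a1 and Col1a2 made up most of it. These were the only 2 of the 11 for which all mutant mice lay below all controls, against 6.67% of all genes. All 9 skeletal muscle genes were positive (median 0.64), with 6889, 12742 and 1973 CPM in mutant mice 1, 2 and 3, against 4622, 9190 and 1101 CPM in control mice 1, 2 and 3. The groups overlapped for both the erythroid and the muscle sums, but the mutant mouse was higher in 3 of 3 pairs. With the replicate block, edgeR called 9 of the 10 erythroid, 8 of the 8 neutrophil and 7 of the 9 muscle genes higher, and without it 0 of each. Over all genes it called 2.7% higher with the block. The pairing was accepted from deviations shared in these same data, so the pairs and these calls are no independent support. The summed level of the 7 small cartilage genes was 117, 43.2 and 156 CPM in mutant mice 1, 2 and 3, and 26.2, 41.7 and 21.8 CPM in control mice 1, 2 and 3. It was highest in mutant mouse 3, whereas the erythroid genes were highest in mutant mouse 1 and the muscle genes in mutant mouse 2. In control mouse 2, the highest control for all 7 genes, articular surface genes were at 510 CPM, against 112 and 244 CPM in control mice 1 and 3, and muscle genes were at their control maximum. In mutant mouse 2, the lowest mutant for all 7, articular surface genes were at 134 CPM, against 541 CPM in mutant mouse 1, where Cytl1 and Clec3a were highest, and 226 CPM in mutant mouse 3. The part of these tissues in the differences of the 7 genes was not tested.

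**Figure D5:**
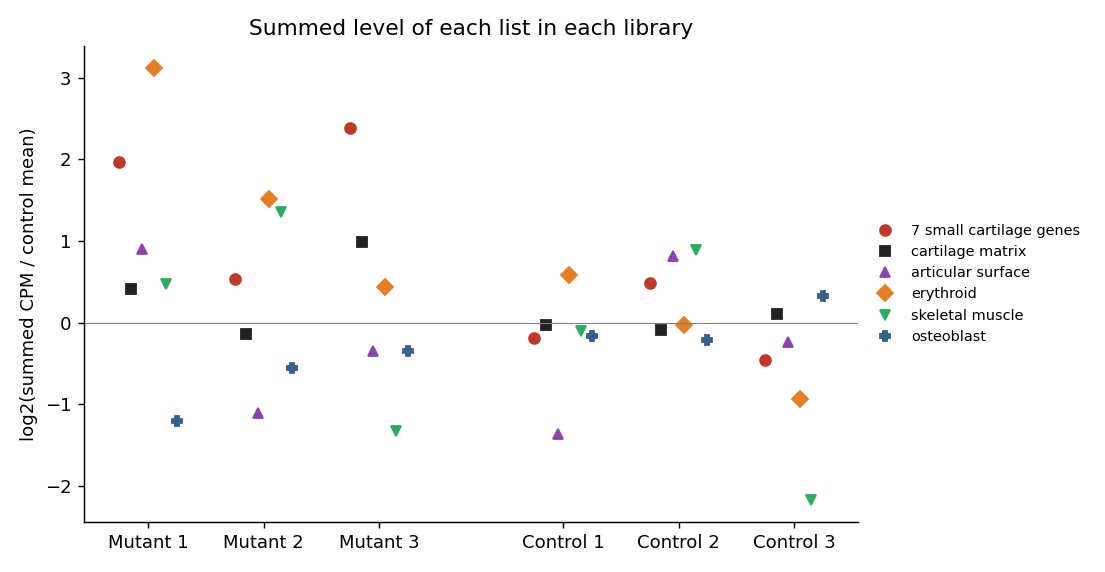
Log2 of the summed CPM of 6 gene lists in each library relative to the mean of the 3 control mice (y axis), with mutant mice at left and control mice at right. The 7 small cartilage genes (red circles) are highest in mutant mouse 3, the erythroid genes in mutant mouse 1 and the skeletal muscle genes in mutant mouse 2. The cartilage matrix sum, unlike the geometric mean, overlaps between the groups, with mutant mouse 2 below all controls. Col11a1 and Col11a2, which had negative log2 fold changes, weigh heavily in this sum.

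The genes whose levels followed the 7 most closely over the 6 libraries were looked up among 17168 genes with a mean of at least 1 CPM. By Pearson correlation of log2 CPM with the mean z-score of the 7, the first 5 were Zbtb43 (r = 0.989), B830012L14Rik (r = 0.987), S100b (r = 0.982), Gm10400 (r = 0.979) and Fam180a (r = 0.978). S100b, a calcium-binding protein that chondrocytes and glia make, was at 12.7, 3.90 and 16.3 CPM in mutant mice 1, 2 and 3, against 3.58, 5.09 and 2.71 CPM in control mice 1, 2 and 3. Fam180a was at 16.3, 4.26 and 20.6 CPM in mutant mice and at 2.75, 5.35 and 2.59 CPM in control mice. Both thus had mutant mouse 2 lowest among the mutants and control mouse 2 highest among the controls. For the single genes, the closest was Mia, a small secreted protein of cartilage, for Cnmd (r = 0.996), Pcolce2, an enhancer of procollagen processing, for Clec3a (r = 0.999), and Fzd9, a Wnt receptor, for both Snorc (r = 0.995) and Scrg1 (r = 0.993). Mia was at 2.37, 0.993 and 3.31 CPM in mutant mice, against 0.499, 0.604 and 0.555 CPM in control mice. The closest were Nfe2l3 for Ucma (r = 0.995), Ints14 for Cytl1 (r = 0.995) and Parp11 for Vit (r = 0.990). Each is the highest of 17168 coefficients over 6 points and is given as a description.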

How the data were processed

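RNA-Seq of 6 femurs was used, 3 mutant and 3 control, with 1 library per mouse. The authors depleted ribosomal RNA, aligned reads with STAR to mm39, and deposited estimated counts per gene, which were not scaled. Partek and mm39 are named in the submitters' processing notes. The sources used here give no tool versions, annotation, counting method or use of strand. Of the values, 70.7% were exactly whole, and no gene had a sum under 10 counts. GENCODE vM39 on GRCm39 gave names and coordinates for 23572 of 23733 identifiers. It may differ from the authors' annotation.

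Counts were rounded, filtered by edgeR's filterByExpr (minimum 10 counts, total 15), scaled by TMM and tested by the quasi-likelihood test with robust estimation over all 18126 genes. Log2 CPM used a prior count of 2. For edgeR, the standard error was derived as the size of the log2 fold change over the square root of its F statistic. DESeq2 and limma-voom gave standard errors from their own models. The alternatives were DESeq2, limma-voom with and without quality weights, other scalings and filters, no robust estimation, the replicate block and leaving out each library. The scripts were tested on simulated data. Versions were R 4.3.3, edgeR 4.0.16, limma 3.58.1, DESeq2 1.42.0, Python 3.11.15, pandas 2.3.3, scipy 1.17.1 and matplotlib 3.10.9.

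Replicate numbers 1 to 3 are shared by the groups in the labels, and no source ties them to litters. Deviations from the group means correlated at 0.154 in pair 1, 0.212 in pair 2 and 0.465 in pair 3, where more than 0.1 in every pair was required, though mutant mouse 1 correlated more with control mouse 2 (0.202). The pairing thus rests on the labels' numbers and the data. No 2 libraries of a group agreed within counting noise (chi-square per gene at least 16.6).

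The 7 genes and the lists beside them were chosen with earlier results of these data known. Genes named outside the 7 follow a fixed rule: all relatives and vitamin K enzymes, up to 3 per other list by p, and those most like the 7 over the libraries. Named outside this rule, after values were seen, were Col11a1, Col11a2, Col10a1, Alpl, Spp1, Panx3, Mef2c, Vegfa, Kdr, Pecam1, Flt1 and Ifitm5. So were the genes of the chondrocyte marker check and the untested Nkx3-2 and Crtac1. The ratio to the matrix list, with its values when 1 mouse was left out, was chosen in the same way.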

Additional observations from a re-analysis of the deposited data

How the results depend on the processing

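The log2 fold changes of the 7 genes kept a positive sign in all 16 alternatives. Over all genes the count of calls was 0, against 118 by DESeq2, 602 with the replicate block and 0 to 8 when 1 library was left out (8 without mutant mouse 2). Of the 7 genes, 0 were called with the block, 2 by DESeq2 (Cnmd, log2 fold change 2.56, and Ucma, 2.39) and 0 to 1 when 1 library was left out (Cnmd, without mutant mouse 2). With 1 library left out, the log2 fold change ranged from 2.04 to 2.94 for Cnmd, 1.79 to 3.36 for Cytl1, 1.99 to 3.18 for Ucma, 0.85 to 1.73 for Snorc, 1.30 to 2.40 for Scrg1, 1.18 to 2.36 for Clec3a and 0.08 to 0.61 for Vit. The cause was not tested. With the block as the pairing, Cnmd had 2.40 (adjusted p = 0.219 from edgeR), Ucma 2.38, Cytl1 2.25, Scrg1 1.95, Clec3a 1.47, Snorc 1.32 and Vit 0.34. With library size alone all 7 were higher by up to 0.20, as was the median of all genes (0.16). Control values of Scrg1, Cytl1 and Ucma rested on 4 to 31 counts, which limits their precision.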
